A study of Mus musculus with 17 samples.

Results

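The GDNF receptor and a set of genes that respond to GDNF were examined in 17 mouse RNA-seq samples. The members are the receptor genes Gfra1 and Ret and the transcription factor genes Etv5, Bcl6b, Lhx1, Pou3f1 and T (Brachyury). They were taken by symbol, and all 7 were found among the 23891 gene symbols of the files. Where a gene has more than 1 RefSeq transcript, the transcript with the highest mean over the 17 samples was used, so 7 of 10 member transcripts stand for the genes and 3 are described beside them.

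The cell types were SSC (4 lines), MASC (6 lines), ESC (2 lines), iPS (2 lines), HSC (2 cultures) and MEF (1 sample). SSCs here are cultured spermatogonial stem and progenitor cells from adult mice. MASCs (multipotent adult spermatogonial-derived stem cells) are ESC-like colonies that arose spontaneously in SSC culture and were picked by their morphology. SSC.1 and SSC.2 carried Oct4-GFP, SSC.3 was C57Bl/6J and SSC.4 was 129mix. MASC.1 and MASC.2 carried Oct4-GFP, MASC.3 and MASC.4 were 129mix, and MASC.5 and MASC.6 carried Gt(ROSA26)Sor-lacZ. ESC.1 carried Oct4-GFP and ESC.2 was 129mix. Both iPS lines were 129mix and came from E13.5 MEFs of a cross of tetO-4F2A with H3.3B-HA mice, reprogrammed with doxycycline at 2 µg/ml. The HSC cultures were Lin- bone marrow cells of C57Bl/6J mice on E4ORF1-HUVEC feeders with sKitL at 10 ng/ml, and the MEF sample was E13.5 fibroblasts of 129mix H3.3B-HA mice.

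SSC lines were grown on MEF feeders with GDNF at 10 ng/ml, bFGF at 10 ng/ml and EGF at 20 ng/ml, and cells still floating after 2 h on gelatin were collected. MASC, ESC and iPS lines were grown on MEF feeders in ESC medium with LIF at 1000 U/ml for at most 20 passages. GDNF is not listed for ESC medium, so cell type and medium cannot be told apart in any comparison of SSC lines with MASC, ESC or iPS lines.

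GDNF is a secreted factor that Sertoli cells and other somatic cells of the testis supply to spermatogonial stem cells. It binds GFRA1, a receptor held to the cell surface by a lipid anchor, and the complex activates RET, a receptor tyrosine kinase. RET then signals through adaptor proteins to the PI3K-AKT, SRC-family and RAS-ERK pathways. In cultured spermatogonia GDNF is known to raise Etv5, Bcl6b, Lhx1, Pou3f1 and Brachyury, several of which are needed to maintain stem cells.

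Ret and Gfra1 each had 2 transcripts well above 0, and these encode different proteins. They are shown because both genes were measured as transcripts, and because the balance of the transcripts differed among SSC lines. On NCBIM37 (mm9), Ret spans chr6:118101766-118147762 on the reverse strand. Its transcript NM_001080780 (7341 bases, 19 exons) ends its coding sequence with 9 residues of its own, and NM_009050 (6064 bases, 20 exons) with 51. These are the short and long forms of the RET tail. The coding ends follow from 5' to 3', with 20 shared bases in lower case and each form's own end, stop codon included, in capitals. The capitals lie at chr6:118105274-118105305 for the short form and at chr6:118103871-118104028 for the long form.
Ret NM_001080780: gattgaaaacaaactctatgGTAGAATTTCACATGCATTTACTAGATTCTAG
Ret NM_009050: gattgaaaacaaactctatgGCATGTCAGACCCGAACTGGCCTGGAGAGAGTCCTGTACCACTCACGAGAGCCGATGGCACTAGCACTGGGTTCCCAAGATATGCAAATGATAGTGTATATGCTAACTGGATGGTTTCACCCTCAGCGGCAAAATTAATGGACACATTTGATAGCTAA

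Gfra1 lies on the reverse strand at chr19:58310095-58529084 for NM_001285457 (4424 bases) and chr19:58310071-58529888 for NM_010279 (4664 bases). NM_010279 holds a coding exon of 15 bases at chr19:58467063-58467077 that NM_001285457 lacks, and the first exons differ too. The exon is in capitals below, between the same 15 bases on either side.
Gfra1 NM_010279: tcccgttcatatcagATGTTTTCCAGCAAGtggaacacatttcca
Gfra1 NM_001285457: tcccgttcatatcagtggaacacatttcca

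Each transcript was measured in FPKM, fragments scaled to transcript length and to sequencing depth, here with upper-quartile and GC normalization. The coverage behind 1 FPKM was 1.26 to 3.23 reads per base, and 13532 to 16272 transcripts per sample reached 1 FPKM. Marker genes matched the labels in most respects. The sum of 10 germ cell markers was 877 to 1617 FPKM in SSC lines against 169 to 226 in MASC lines, and the sum of pluripotency markers was 28.3 to 171 against 3244 to 4813. SSC.1 had 94.5 FPKM of Pou5f1, against 1.37 to 5.42 in the other SSC lines. Of the 10 germ cell markers, SSC.2 was the lowest SSC line for 6, the highest for 2 and between for 2. Ddx4 was at 20.1 FPKM in SSC.2 against 93.2 to 170 in the other SSC lines and Nanos3 at 10.9 against 66.2 to 84.2, whereas Dazl was at 405 against 201.8 to 275 and Taf4b at 41.5 against 18.4 to 26.2. Summed fibroblast markers ranged from 7.36 to 897 FPKM in SSC lines and from 17.5 to 1088 in MASC lines, against 5609 in MEFs. Of 7 Sertoli cell markers 6 were found, and these summed to 18.96 to 29.3 FPKM in SSC lines and 3.39 to 18.6 in MASC lines. Of them, Fshr was listed at 0 in every SSC line, Amh was at most 0.817 FPKM, Cldn11 at most 0.614, and Wt1 was at 8.17 to 20.9. Sox9 was at 1.75, 12.4, 3.23 and 9.56 FPKM in SSC.1 to SSC.4, and Gata4 at 0.928, 4.94, 0.383 and 5.95. In MASC lines Sox9 was at 0.399 to 3.24 FPKM and Gata4 at 0.560 to 10.7. Blood cell markers were at 4.45 to 9.28 FPKM in SSC lines against 1519 to 2036 in HSC cultures, and the MEF sample had 75.1, with the macrophage and myeloid gene Spi1 among them. Endothelial markers summed to 1.99 to 5.63 FPKM in SSC lines and markers of differentiating spermatogonia to 103 to 238, against 5.74 to 15.9 and 9.37 to 53.5 in MASC lines.

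**Figure D1:**
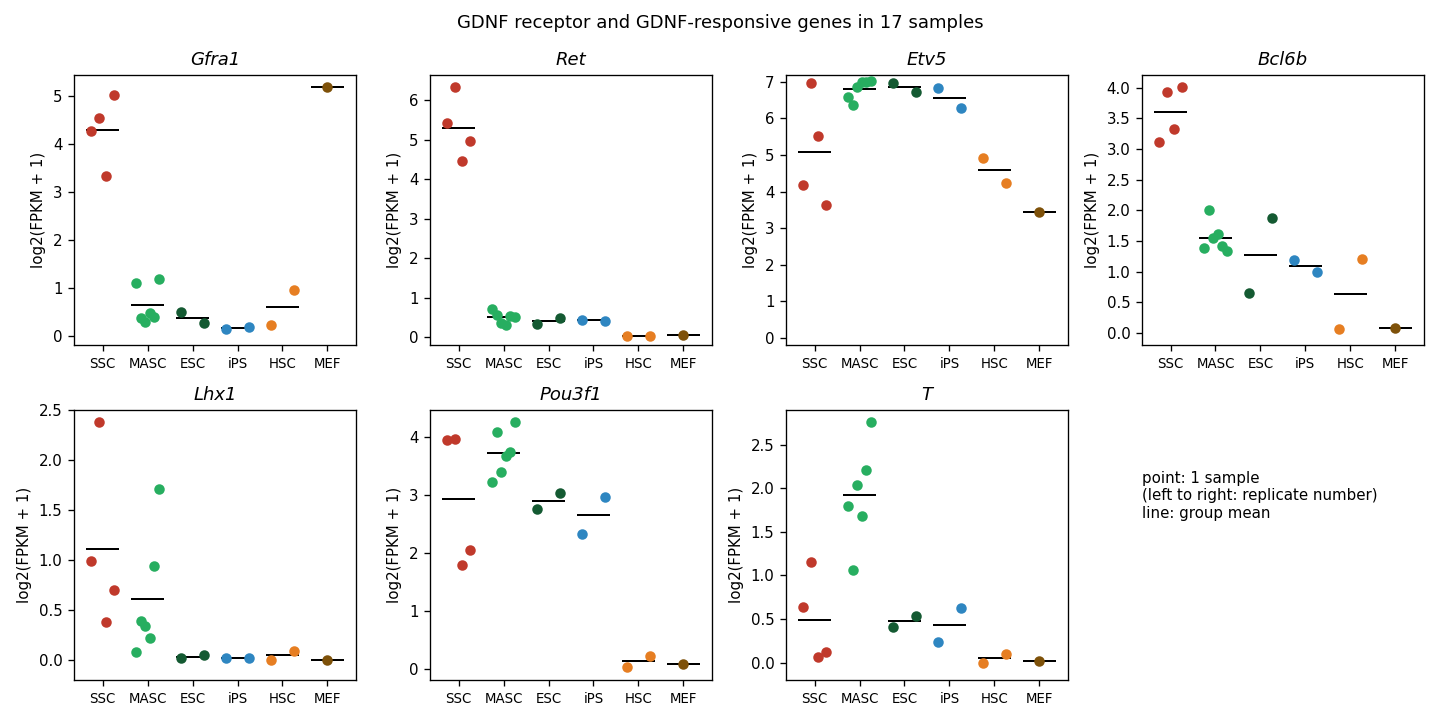
Level of each gene as log2(FPKM + 1) on the vertical axis, by cell type on the horizontal axis, with 1 point per sample in order of replicate number and a line at the group mean. Ret, Gfra1 and Bcl6b were higher in all 4 SSC lines than in all 6 MASC lines, and Gfra1 was as high in the MEF sample as in SSC lines.

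Ret, which encodes the signalling subunit of the receptor, was the member that set SSC lines furthest apart. Ret NM_001080780 was at 41.7, 78.9, 21.1 and 30.1 FPKM in SSC.1 to SSC.4. The 6 MASC lines lay between 0.252 and 0.657 FPKM with a median of 0.442. The ESC lines were at 0.256 and 0.413 FPKM, the iPS lines at 0.365 and 0.332, the HSC cultures at 0.0171 and 0.0224, and MEFs at 0.0393. All 4 SSC lines thus lay above every other sample, and the MASC, ESC and iPS lines overlapped. On the scale of log2(FPKM + 1), which was used for every difference below and understates the change of low genes, SSC lines were higher than MASC lines by 4.78 ± 0.29 (SE, n = 4 and 6; limma, adjusted p = 3.38e-06). Against ESC lines the difference was 4.88 ± 0.40 (adjusted p = 3.92e-05), against iPS lines 4.86 ± 0.36 (adjusted p = 3.30e-06) and against HSC cultures 5.26 ± 0.36 (adjusted p = 4.17e-07). These are bulk samples, so fewer cells with the gene and less RNA per cell cannot be told apart. The separate lines are the replicates, and nothing in the labels says which of them share a culture or a mouse.

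The long-tail transcript Ret NM_009050 followed the same order at lower levels. It was at 17.1, 12.5, 9.80 and 10.0 FPKM in SSC.1 to SSC.4 and at most 0.303 FPKM in the 6 MASC lines. The difference was 3.50 ± 0.14 (adjusted p = 3.01e-07). The short-tail form made up 75.1% ± 7.98 (SD, n = 4) of Ret FPKM in SSC lines, from 68.3% in SSC.3 to 86.3% in SSC.2. The excess of Ret in SSC.2 was therefore in the short-tail form, since its long-tail FPKM lay within the range of the other SSC lines.

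Gfra1, which encodes the GDNF-binding subunit, was high in SSC lines and in MEFs. Gfra1 NM_001285457 was at 18.2, 22.2, 9.04 and 31.7 FPKM in SSC.1 to SSC.4 and at 35.5 FPKM in MEFs. In MASC.1 to MASC.6 it was at 1.14, 0.302, 0.216, 0.385, 0.304 and 1.27 FPKM. The ESC lines were at 0.414 and 0.196 FPKM, the iPS lines at 0.0989 and 0.128 and the HSC cultures at 0.174 and 0.931. No SSC line overlapped a MASC, ESC, iPS or HSC sample, and the MEF sample lay above every SSC line. The difference between SSC and MASC lines was 3.66 ± 0.32 (SE; adjusted p = 2.77e-05), and against ESC lines it was 3.91 ± 0.43 (adjusted p = 0.000225). It was 4.13 ± 0.41 against iPS lines (adjusted p = 2.82e-05) and 3.70 ± 0.41 against HSC cultures (adjusted p = 2.62e-05). With 1 MEF sample there was no test against MEFs.

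Gfra1 NM_010279, the transcript with the 15-base exon, was higher in every SSC line than in the MEF sample. It was at 14.3, 8.34, 12.7 and 21.5 FPKM in SSC.1 to SSC.4 and at 5.19 FPKM in MEFs. Outside SSC lines and MEFs it exceeded 0.1 FPKM only in MASC.1 (0.188) and MASC.6 (0.231). The share of Gfra1 FPKM without the exon was 57.4% ± 12.9 (SD, n = 4) in SSC lines, with 41.4% in SSC.3 as the lowest and 72.7% in SSC.2 as the highest. It was 86.8% in MEFs, above all 4 SSC lines. The non-coding transcript NR_104342 was at most 0.211 FPKM in every sample.

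**Figure D2:**
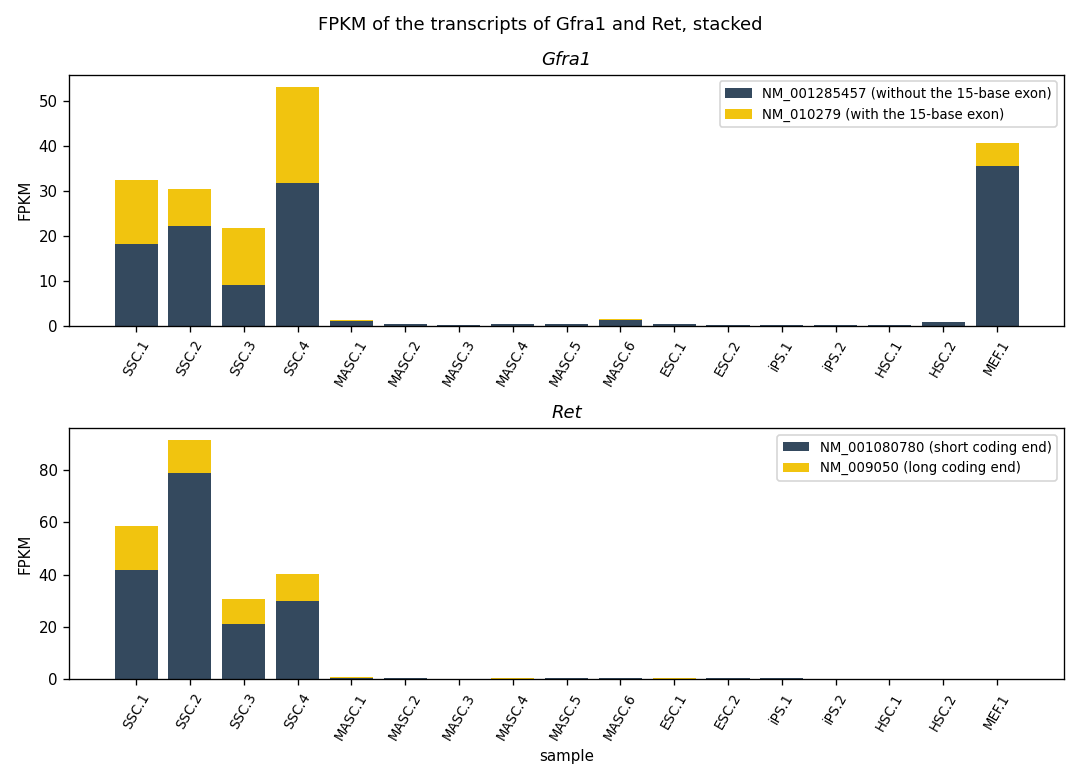
FPKM of the transcripts of Gfra1 (top) and Ret (bottom), stacked from 0, for each of the 17 samples on the horizontal axis. The Gfra1 transcript with the 15-base exon reached 21.5 FPKM in SSC.4 and 5.19 in MEFs, and the short-tail Ret transcript reached 78.9 FPKM in SSC.2.

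MEFs were the feeder cells of the SSC, MASC, ESC and iPS cultures, so fibroblast markers are given beside Gfra1. The sum of 9 fibroblast markers was 390 FPKM in SSC.1, 7.36 in SSC.2, 897 in SSC.3 and 76.1 in SSC.4. SSC.2, with the lowest sum, had 30.5 FPKM of Gfra1 over all transcripts, and SSC.3, with the highest, had 21.9. Among MASC lines the sum was highest in MASC.1 (1088 FPKM), which had 1.33 FPKM of Gfra1. In MASC.6, with the highest Gfra1 of the MASC lines (1.497 FPKM), the sum lay within the range of MASC.2 to MASC.5. HSC.2, with more Gfra1 than HSC.1, had a sum of 438 FPKM against 6.92. The part of feeder cells in the Gfra1 values of SSC, MASC, ESC and iPS lines and HSC cultures was not tested. Ret was at 0.0393 FPKM in the MEF sample.

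**Figure D3:**
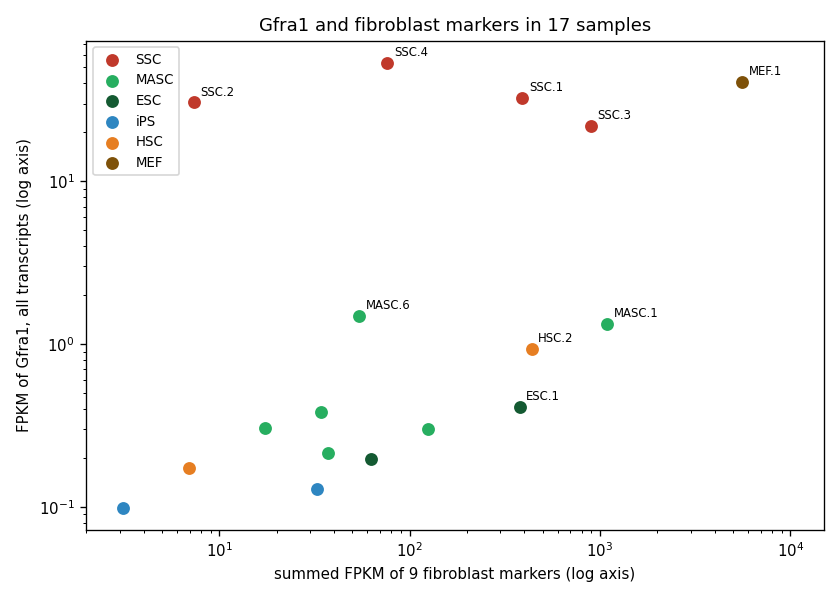
FPKM of all Gfra1 transcripts against the summed FPKM of 9 fibroblast markers, both on log axes, with 1 point per sample coloured by cell type. The SSC lines stayed between 21.9 and 53.4 FPKM of Gfra1 while the fibroblast sum ran from 7.36 to 897.

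Bcl6b, a transcriptional repressor gene that GDNF induces in spermatogonia, was the third member that was higher in SSC lines. It lies at chr11:70037629-70043300 and was at 7.66, 14.3, 9.07 and 15.1 FPKM in SSC.1 to SSC.4. MASC lines were at 1.51 to 3.0 FPKM with a median of 1.79. The ESC lines were at 0.575 and 2.67 FPKM, the iPS lines at 1.28 and 1.00, the HSC cultures at 0.0474 and 1.31, and MEFs at 0.0560. SSC lines did not overlap with any other cell type, whereas MASC lines overlapped with ESC lines. The difference was 2.05 ± 0.27 between SSC and MASC lines (SE; adjusted p = 0.000313) and 2.33 ± 0.36 between SSC and ESC lines (adjusted p = 0.00148). It was 2.50 ± 0.39 against iPS lines (adjusted p = 0.000596) and 2.96 ± 0.39 against HSC cultures (adjusted p = 9.04e-05).

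Etv5, an ETS-family transcription factor gene known as a GDNF and FGF target in spermatogonia, had its highest levels in MASC, ESC and iPS lines and in 1 SSC line. Its gene spans chr16:22381386-22439643. Etv5 was at 17.2, 123, 44.99 and 11.4 FPKM in SSC.1 to SSC.4. MASC.1 to MASC.6 were at 94.8, 81.1, 114, 126, 126 and 128 FPKM. ESC.1 and ESC.2 were at 124 and 105 FPKM, the iPS lines at 112 and 76.8, the HSC cultures at 29.1 and 17.9 and MEFs at 9.95. SSC.2 lay among the MASC lines, and the other 3 SSC lines lay below every MASC, ESC and iPS line.

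The Etv5 difference between SSC and MASC lines was -1.72 ± 0.55 (SE; adjusted p = 0.0397). Without SSC.2 it was -2.35 (adjusted p = 0.00139). Leaving out any other SSC or MASC line gave -1.24 to -1.87 and an adjusted p of 0.0505 to 0.112, so the call did not hold in those 9 fits. Within Oct4-GFP lines, SSC.1 and SSC.2 (17.2 and 123 FPKM) lay on either side of MASC.1 and MASC.2. Within 129mix lines, SSC.4 (11.4 FPKM) lay below MASC.3 and MASC.4, and with strain as a block the adjusted p was 0.126. Against ESC lines the difference was -1.78 (95% interval -3.44 to -0.11, adjusted p = 0.128), and against iPS lines -1.48 (-2.99 to 0.033, adjusted p = 0.156). Without SSC.2 both passed the test, at -2.40 (adjusted p = 0.00675) and -2.10 (adjusted p = 0.0061). Against HSC cultures the difference was 0.50 (-1.01 to 2.01, adjusted p = 0.676), and -0.13 without SSC.2.

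T (Brachyury), a T-box transcription factor gene of the primitive streak, was higher in MASC lines than in SSC lines at low levels in both. It lies at chr17:8627288-8635361 and has 8 exons. T was at 0.552, 1.22, 0.0423 and 0.0898 FPKM in SSC.1 to SSC.4 and at 2.48, 1.08, 3.10, 2.21, 3.63 and 5.79 FPKM in MASC.1 to MASC.6. ESC.1 and ESC.2 were at 0.331 and 0.448 FPKM and the iPS lines at 0.176 and 0.549. T was listed at 0 in HSC.1, at 0.0731 FPKM in HSC.2 and at 0.0109 in MEFs. SSC.2 lay above MASC.2, and otherwise the SSC lines lay below the MASC lines. The difference was -1.43 ± 0.32 (SE; adjusted p = 0.00774), and it passed the test whichever SSC or MASC line was left out. With strain as a block it was -1.01 (adjusted p = 0.0689). Within Oct4-GFP lines, SSC.1 and SSC.2 overlapped with MASC.1 and MASC.2. Within 129mix lines, SSC.4 lay below MASC.3 and MASC.4. The difference from ESC lines was 0.018 (95% interval -0.96 to 0.99, adjusted p = 1).

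Etv5 and T were the members higher in MASC lines, and Gfra1 was among those lower there, so their promoters are shown. Each is the 250 bases before the RefSeq start on GRCm38.p6, a later build than that of the expression files. Promoters were found for 4 of the 7 members in the table used. Etv5 had 2 starts there, and the first is shown. Which of them the measured Etv5 transcript uses was not determined. The Gfra1 transcripts differ in their first exons, and which of them the Gfra1 window precedes was not determined.
Gfra1, chr19:58455399-58455648, reverse strand: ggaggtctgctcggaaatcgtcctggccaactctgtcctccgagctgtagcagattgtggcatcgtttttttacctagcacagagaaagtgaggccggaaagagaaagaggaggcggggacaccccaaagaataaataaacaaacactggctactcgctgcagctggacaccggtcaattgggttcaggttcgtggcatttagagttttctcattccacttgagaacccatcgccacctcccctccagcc
Etv5, chr16:22439571-22439820, reverse strand: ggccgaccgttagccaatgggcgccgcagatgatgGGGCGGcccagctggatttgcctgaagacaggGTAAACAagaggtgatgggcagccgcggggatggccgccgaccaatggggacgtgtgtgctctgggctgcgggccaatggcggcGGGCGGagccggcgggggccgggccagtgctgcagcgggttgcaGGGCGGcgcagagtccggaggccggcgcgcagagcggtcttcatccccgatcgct
T, chr17:8434173-8434422, forward strand: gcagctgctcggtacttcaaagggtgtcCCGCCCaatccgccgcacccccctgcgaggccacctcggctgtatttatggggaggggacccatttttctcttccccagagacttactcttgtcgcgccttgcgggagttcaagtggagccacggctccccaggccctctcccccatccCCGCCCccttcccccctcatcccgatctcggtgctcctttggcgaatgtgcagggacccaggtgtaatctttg

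Capitals mark exact matches on either strand to 6 motifs searched: the ETS site CGGAAG, the FOXO motif GTAAACA, the octamer ATGCAAAT, the T-box half-site TCACACCT, the GC box GGGCGG and the TATA box TATAAA. No motif holds another. They occur in 13.6%, 3.17%, 1.6%, 1.12%, 32.7% and 12.4% of 32851 promoters of the same length. The Etv5 window shown holds 1 FOXO motif and 3 GC boxes, and the window before the second Etv5 start holds none of the 6. The T window holds 2 GC boxes, and the Gfra1 window holds none of the 6. Only exact matches were marked, so other forms of a site, such as cggaaa in the Gfra1 window, were not counted. A match describes only the letters of the window.

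Lhx1, a LIM-homeobox gene, and Pou3f1, a POU-domain gene, did not differ by the test between SSC and MASC lines. Lhx1 lies at chr11:84332881-84339036, 125 bases from the antisense gene Lhx1os. It was at 0.985, 4.23, 0.306 and 0.622 FPKM in SSC.1 to SSC.4 and at 0.0577, 0.310, 0.268, 0.165, 0.926 and 2.29 FPKM in MASC.1 to MASC.6. The ESC, iPS, HSC and MEF samples were at 0 to 0.0680 FPKM, below every SSC line. SSC.2 and MASC.6 were the highest of their groups, and the groups overlapped. The SSC to MASC difference was 0.50 (95% interval -0.47 to 1.46, adjusted p = 0.45). Against ESC lines it was 1.08 (-0.21 to 2.37, adjusted p = 0.237), against iPS lines 1.10 (-0.050 to 2.24, adjusted p = 0.166) and against HSC cultures 1.07 (-0.078 to 2.21, adjusted p = 0.146). With a pseudocount of 0.1, Lhx1 passed the test against iPS lines (3.25, adjusted p = 0.0384) and HSC cultures (3.06, adjusted p = 0.0377).

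Pou3f1, a gene of 1 exon at chr4:124334889-124337899, fell into a higher and a lower pair of SSC lines. It was at 14.5 and 14.6 FPKM in SSC.1 and SSC.2, which carried Oct4-GFP, and at 2.46 and 3.13 FPKM in SSC.3 and SSC.4. MASC.1 to MASC.6 were at 8.34, 15.9, 9.55, 11.8, 12.4 and 18.2 FPKM. The ESC lines were at 5.75 and 7.19 FPKM and the iPS lines at 4.03 and 6.83, between the 2 pairs of SSC lines. MASC and ESC lines were not split in this way by Oct4-GFP, since MASC.1 and MASC.2 lay on either side of MASC.3 and MASC.4, and ESC.1 lay below ESC.2. HSC cultures were at 0.0163 and 0.168 FPKM and MEFs at 0.0583. The SSC to MASC difference was -0.79 (95% interval -1.84 to 0.26, adjusted p = 0.25), and those from ESC lines (0.046, -1.36 to 1.46) and iPS lines (0.29, -0.98 to 1.57) had adjusted p-values of 1 and 0.855. SSC lines were higher than HSC cultures by 2.82 ± 0.58 (SE; adjusted p = 0.00255). That call did not hold with strain as a block (1.67, adjusted p = 0.109) or in a fit of these groups alone (adjusted p = 0.093).

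In the comparison of SSC with MASC lines, 3 of the 7 members were higher in SSC lines, where 19.5% of all 32661 transcripts were, and 2 were lower, where 11.4% were. Of the transcripts with at least 1 FPKM in 2 of the 12 SSC, MASC and ESC lines, 27.9% were higher and 17.9% lower. The 3 higher members did not overlap between the groups, as 15.4% of transcripts did not in that direction. Neither lower member was free of overlap, as 9.92% of transcripts were. The same 3 were higher in SSC lines than in ESC lines (13.8% of all transcripts) and than in iPS lines (15.6%). Those 3 and Pou3f1 were higher in SSC lines than in HSC cultures (20.7%). No member was lower in SSC lines than in ESC lines (7.67% of transcripts), iPS lines (8.93%) or HSC cultures (12.7%). At an unadjusted p under 0.05 in limma, 1 member, Etv5, was lower than in ESC lines, and 0 were lower than in iPS lines or HSC cultures. These comparisons share the SSC lines. In all SSC lines, 7551 of the 32661 transcripts lay above both ESC lines, 8717 above both iPS lines and 8894 above both HSC cultures. Against these groups of 2, a lack of overlap as in Ret, Gfra1, Bcl6b and Lhx1 was thus common.

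**Figure D4:**
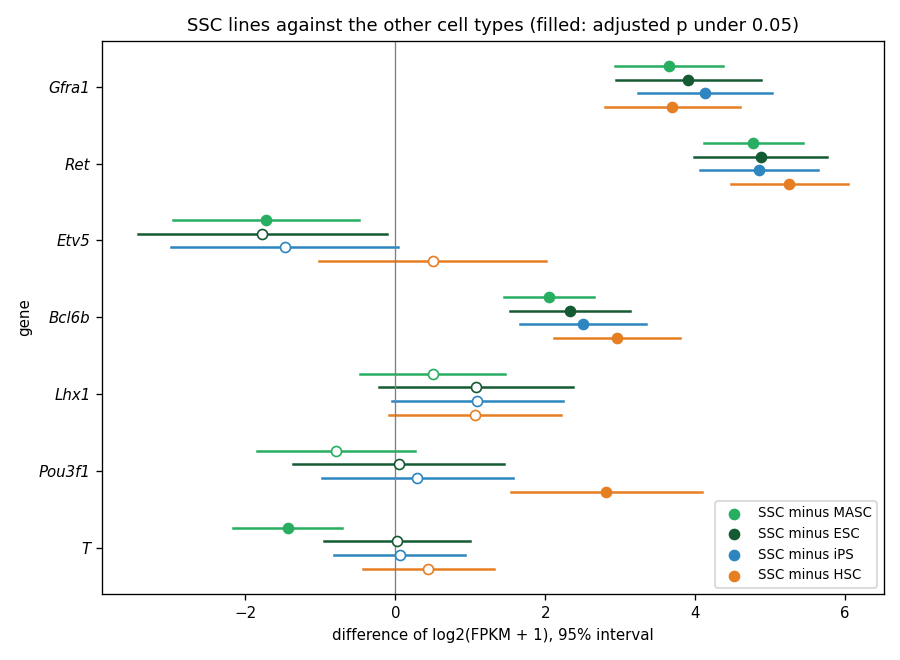
Difference of log2(FPKM + 1) between SSC lines and MASC, ESC, iPS or HSC samples on the horizontal axis for each gene, with its 95% interval from limma and filled points where the adjusted p is under 0.05. Ret reached 5.26 against HSC cultures, and the intervals of Lhx1 held 0 in all 4 comparisons.

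MASC and ESC lines did not differ in any member by the test. By limma, 1 transcript of all 32661 was higher in MASC lines (0.00306%) and 9 were higher in ESC lines (0.0276%). At an unadjusted p under 0.05, 1 member differed. This was T, at 1.45 (95% interval 0.53 to 2.37, adjusted p = 1), and all 6 MASC lines lay above both ESC lines. All MASC lines also lay above both ESC lines for Pou3f1 (0.84, -0.49 to 2.17) and Lhx1 (0.58, -0.64 to 1.80). Of all 32661 transcripts, 1114 lay above both ESC lines in all MASC lines and 720 lay below both. The other intervals were -0.66 to 1.16 for Gfra1, -0.74 to 0.93 for Ret, -0.48 to 1.04 for Bcl6b and -1.62 to 1.51 for Etv5. With 2 ESC lines, the lack of a call does not show equal levels. The intervals are unadjusted and do not bound what the adjusted test could detect, since that of T left out 0 without a call.

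The SSC lines differed widely among themselves in several members. SSC.2 was the highest SSC line for 5 of the 7 members, and SSC.4 for Gfra1 and Bcl6b. Of 18474 transcripts with at least 1 FPKM in an SSC line, SSC.2 was the highest line for 28.8%. Of the 11 ETS factor and feedback inhibitor genes that ERK signalling induces, SSC.2 was the highest SSC line for 7, SSC.3 was for the other 4, and Etv1 was lowest in SSC.2. Etv4, the ETS-family relative of Etv5, was at 10.4, 62.4, 28.3 and 8.34 FPKM in SSC.1 to SSC.4, and Spry4, a feedback inhibitor of receptor tyrosine kinases, at 0.903, 22.1, 2.68 and 0.970. Cxcr4, the receptor for CXCL12, was at 22.9 FPKM in SSC.2 and at 1.45 to 5.84 in the other SSC lines. Ccnd2, the cell cycle gene for cyclin D2, was at 310 FPKM in SSC.2 against 34.6 to 45.3. Among 18 genes known to respond to GDNF or to serve SSC self-renewal, SSC.2 was the highest SSC line for 10. It was the lowest for 5 and between for 3. Those 5 include Egr4, at 101 FPKM in SSC.2 against 177 to 193, and Nanos2, at 6.13 against 7.35 to 14.8. In SSC.2 all 9 fibroblast markers and 6 of the 10 germ cell markers were at their lowest among the SSC lines, and 2 germ cell markers at their highest, and the part of these differences was not tested.

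**Figure D5:**
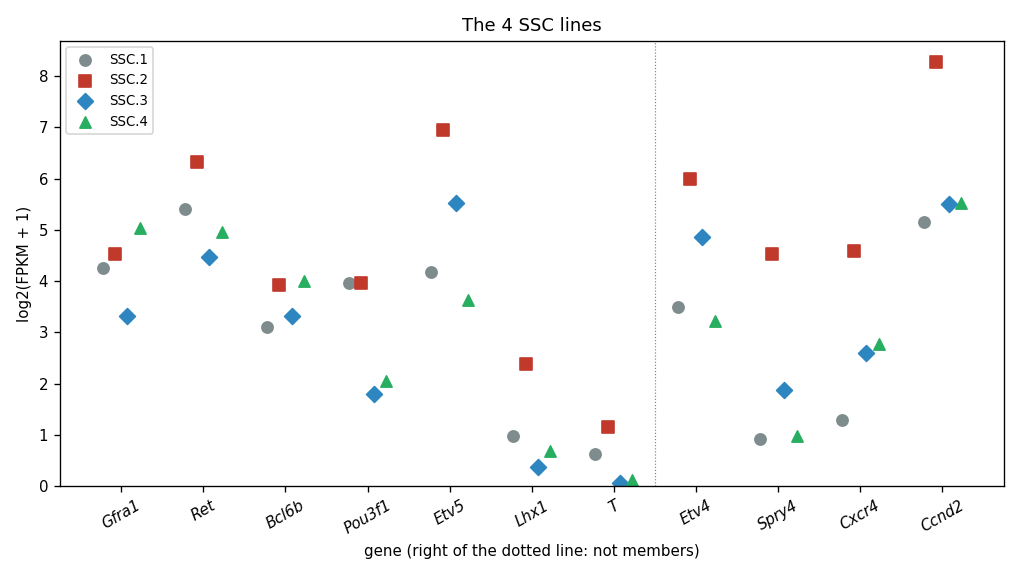
Level as log2(FPKM + 1) on the vertical axis of the 7 members and 4 further genes on the horizontal axis, with 1 symbol for each of the 4 SSC lines, set side by side. SSC.2 was at 123 FPKM of Etv5 and 62.4 of Etv4, against 11.4 and 8.34 in SSC.4. The 4 further genes were chosen after their values were seen, and SSC.2 was the highest SSC line for each.

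A list of 9 genes held receptors and co-receptors of the GDNF family and the receptor tyrosine kinase inhibitor Lrig1. Of these 6 were higher in SSC than MASC lines, none was lower and 3 were not called. The median difference was 1.79, against 0.0048 over all transcripts. Higher genes made up 66.7% of the list, against 19.5% of all transcripts and 27.9% of those with at least 1 FPKM. Beside Ret and Gfra1, the higher genes were Gfra4, the persephin receptor (2.15, adjusted p = 0.000292), and Lrig1, a transmembrane inhibitor (1.84, adjusted p = 0.0229). Gfra3, the artemin receptor (1.79, adjusted p = 0.00691), and Gfra2, the neurturin receptor (0.80, adjusted p = 0.0109), were higher too. Gfra4 was at 4.48 to 12.4 FPKM in SSC lines and 0.249 to 1.39 in MASC lines. Gfra3 overlapped between the groups. It was at 6.76, 0.474, 4.95 and 3.12 FPKM in SSC.1 to SSC.4, and SSC.2 lay below MASC.2 at 0.493. Gfra2 was low in both groups, at 0.665 to 2.48 FPKM in SSC lines and 0.201 to 0.630 in MASC lines. Lrig1 was at 18.1 to 24.8 FPKM in SSC lines and at 2.96 to 24.6 in MASC lines, with the top value in MASC.1, the MASC line with the highest fibroblast sum; MEFs were at 28.1. Gfral was at most 0.0359 FPKM in any sample.

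Gdnf itself was at 0.00924 to 0.685 FPKM in the 17 samples, with the highest value in MEFs. Of the 5 ligand genes, Nrtn, which encodes neurturin, was higher in SSC lines (12.03 to 17.96 against 2.44 to 10.2 FPKM, difference 1.22, adjusted p = 0.0307). Gdf15, a stress-induced ligand of GFRAL, was lower (0.161 to 1.44 against 1.78 to 14.3 FPKM, difference -1.50, adjusted p = 0.0349). The other 3 were not called, and the median was -0.18. Thus 20% of the ligand genes were higher and 20% lower, against 19.5% and 11.4% of all transcripts.

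Of 28 genes for RET adaptors and signal transducers, 10 were higher in SSC lines, 5 lower and 13 not called, with a median of 0.23. These shares, 35.7% and 17.9%, were near the 27.9% and 17.9% of transcripts with at least 1 FPKM given above, so the list as a whole was close to the background. The kinase gene Fyn (1.69, adjusted p = 4.67e-05) and the adaptor genes Shc3 (1.22, adjusted p = 0.0328) and Dok4 (1.19, adjusted p = 0.000705) were higher. Fyn was at 17.9 to 30.05 FPKM in SSC lines and 4.93 to 8.31 in MASC lines. The docking and adaptor protein genes Dok2 (-2.61, adjusted p = 0.000487), Gab1 (-2.12, adjusted p = 1.43e-05), Grb7 (-1.61, adjusted p = 0.00543) and Shc1 (-0.90, adjusted p = 0.00261) were lower. Gab1 was at 11.4 to 15.3 FPKM in SSC lines against 37.7 to 69.2.

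Of 18 genes known to respond to GDNF or to serve SSC self-renewal, members included, 10 were higher in SSC lines. Of the rest, 3 were lower and 5 were not called, and the median difference of the list was 1.64. The shares were 55.6% higher and 16.7% lower, against 19.5% and 11.4% of all transcripts. Among transcripts with at least 1 FPKM they were 27.9% and 17.9%, so the share of lower genes was near that background. The highest differences were those of Egr4, an early growth response factor (6.38, adjusted p = 5.45e-06), Zbtb16, the PLZF repressor of undifferentiated spermatogonia (5.32, adjusted p = 1.30e-06), Ccnd2 (3.82, adjusted p = 0.00277) and Nanos2, an RNA-binding regulator of spermatogonial stem cells (3.40, adjusted p = 2.71e-06). Egr4 was at 177, 101, 183 and 193 FPKM in SSC.1 to SSC.4 and at 0.200 to 4.54 in MASC lines. The lower genes were Etv5, T and Mycn, a proto-oncogene transcription factor (18.5 to 37.1 against 33.3 to 99.2 FPKM, difference -0.94, adjusted p = 0.0445).

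Of 11 ETS factor and feedback inhibitor genes that ERK signalling induces, none was higher in SSC lines, where 19.5% of all transcripts were. The member Etv5 was among 5 that were lower, 6 were not called, and the median was -1.48. Lower genes made up 45.5% of the list, against 11.4% of all transcripts and 17.9% of those with at least 1 FPKM. Dusp4, an ERK phosphatase gene (-2.77, adjusted p = 0.000211), Spry2, a receptor tyrosine kinase inhibitor gene (-2.46, adjusted p = 4.92e-05), Etv1, a further relative of Etv5 (-2.15, adjusted p = 5.81e-06), and Etv5 were lower, with Dusp6 as the fifth. Spry2 was at 6.87 to 17.5 FPKM in SSC lines and 50.9 to 75.6 in MASC lines. Etv4 (-1.48, adjusted p = 0.0505) and Spry4 (-2.28, adjusted p = 0.0511) missed the threshold, and SSC.2 lay within the range of MASC lines for both. Against ESC lines none of the 11 was higher and 3 were lower, with a median of -1.55. That is 27.3% lower, against 7.67% of all transcripts, of which 13.8% were higher.

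T was compared with other genes of the primitive streak and mesoderm. Of 10 such genes, 4 were higher in SSC lines, 2 lower and 4 not called, with a median of 0.34. The shares of 40% and 20% stand beside 19.5% and 11.4% of all transcripts. Among transcripts with at least 1 FPKM they were 27.9% and 17.9%. The higher ones were Mixl1 (1.12, adjusted p = 0.00717), Wnt3 (0.83, adjusted p = 0.0105), Tbx6 (0.81, adjusted p = 0.000406) and Mesp1 (0.51, adjusted p = 0.00527), and all 4 stayed at or under 3.25 FPKM in SSC lines. The homeobox gene Evx1 (-0.35, adjusted p = 0.0184) was lower, as was T. T thus differed in the opposite direction to Mixl1, Wnt3, Tbx6 and Mesp1. SSC.2 was the highest SSC line for 8 of the 10.

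For Pou3f1, which is also known as a gene of the formative epiblast, 9 genes of that state and of primed epiblast were examined. Of these 5 were lower in SSC lines, 1 was higher and 3 were not called, with a median of -1.81. Lower genes made up 55.6% and higher genes 11.1%, against 11.4% and 19.5% of all transcripts. Among transcripts with at least 1 FPKM, 17.9% were lower and 27.9% higher. Among the lower genes were the DNA methyltransferase gene Dnmt3b (-4.02, adjusted p = 2.75e-05), Zic2 (-2.86, adjusted p = 0.00217), Otx2 (-2.40, adjusted p = 0.000703) and Lef1, and Sall2 was higher (1.48, adjusted p = 0.0022). Otx2, a homeobox gene, was at most 0.0703 FPKM in SSC lines and 2.33 to 9.68 in MASC lines, whereas Pou3f1 overlapped between the groups.

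The genes whose log2(FPKM + 1) ran closest to each member were found by Pearson's r over the 17 samples, as a description with no test. For Gfra1 they were Gm10007 (0.991), Klhl29 (0.988) and Hoxc9 (0.965), and in MEFs each lay within the range of the SSC lines. Gm10007 lies inside the span of Gfra1 at chr19:58370694-58374838, so reads from the 2 genes may not be told apart. For Ret they were Adamts17 (0.991), Gm19583 (0.990) and Gm15093 (0.989), a gene with further copies in the files whose level is uncertain. Etv5 ran closest to Etv4 (0.950) and Ahcy (0.932), and Bcl6b to Znrf3 (0.965), Map6d1 (0.964) and Lemd3 (0.962). For Lhx1 they were the neurofilament gene Nefm (0.918), Spsb4 (0.916) and A230070E04Rik (0.902), and all 3 were highest in SSC.2. For Pou3f1 they were Tcf15 (0.915), Chga (0.902) and Zc3hc1 (0.901). T ran closest to Cyp26a1, a retinoic acid-degrading enzyme (0.893), Gal (0.840) and Insm1 (0.823), and these 3 and T were all highest in MASC.6. Among the members themselves r was highest for Ret and Bcl6b (0.906), followed by 0.758 for Gfra1 and Ret, and lowest for Gfra1 and Etv5 (-0.64). The points share cell type, strain and depth, and most of the spread is between cell types.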

How the data were processed

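RNA-seq tables of 17 samples were used. The authors aligned reads with TopHat2 2.0.11 to mm9, excluded duplicates and reads with several map positions, and ran Cufflinks with upper-quartile and GC normalization. They deposited FPKM per RefSeq transcript, with its confidence bounds and the coverage, a signal in reads per base. Read counts are not given, and no count test was run. Whether counting used strand is not given in the sources used here.

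Of 33262 rows per file, 601 further loci were left out, which left 32661 transcripts. Cell types came from the sample titles. Values were tested as log2(FPKM + 1), without a filter, in R 4.3.3 by linear models and moderated statistics of limma 3.58.1, with no trend, over the 12 SSC, MASC and ESC lines. SSC lines were compared with iPS lines and HSC cultures in a fit over all 17 samples. P-values are two-sided and were adjusted by Benjamini-Hochberg over all transcripts, and an adjusted p under 0.05 is a call. The procedure was tested on simulated data.

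Members and gene lists were chosen with earlier results of these data known. The text names the members, up to 4 called genes per list and direction with the largest difference, and the 3 genes nearest to each member by r. Some genes that this rule names are not reported here. Genes named for the differences among SSC lines, and Gfral, Dusp6 and Gdnf, were chosen after their values were seen. Exon structures came from GENCODE vM1 on NCBIM37 (the mm9 build), where length and ends matched, and promoters from RefSeq on GRCm38.p6. Alternatives were another pseudocount, a filter, quantile normalization, summed transcripts, other limma settings, strain and replicate blocks, other sample sets and leaving out each line.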

Additional observations from a re-analysis of the deposited data

How the results depend on the processing

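Ret, Gfra1 and Bcl6b were called higher in SSC lines than in MASC, ESC, iPS and HSC samples under every alternative run. Of 162 counts of called members, 147 stayed within 1.5 times the main count, and of 567 differences of single members 523 kept their direction and side of the threshold. The count of members higher in MASC than SSC lines was 2. It was 1 with quantile normalization, which lost Etv5 (-1.61, adjusted p = 0.0947), and 0 when a log2 difference of at least 2 was required, which neither Etv5 nor T reached. With strain as a block it was 0 and with replicate number as a block 0. Leaving out 1 line gave 1 to 2. Etv5 was called in 6 of 19 alternatives (adjusted p 0.00139 to 0.226) and T in 16 of 19 (0.00226 to 0.107). The counts of members higher in ESC than SSC lines and in iPS than SSC lines were 0, and 0 to 1 when 1 line was left out, the call being Etv5 without SSC.2. Pou3f1 against HSC cultures was called in 13 of 15 alternatives (adjusted p 0.000108 to 0.109), and Lhx1 in 1 of 15 against iPS lines (0.0384 to 0.41) and 1 of 15 against HSC cultures (0.0377 to 0.81).

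Replicate numbers are shared between cell types, and the labels do not say that a number marks a shared mouse or day. Over deviations from group means, SSC and MASC lines of the same number correlated at -0.225 to 0.185 (4 pairs, mean -0.031), against a mean of 0.005 over 20 pairs of different number, so the numbers were not taken to pair the lines. With the replicate block, Etv5 was at -1.62 (adjusted p = 0.226) and T at -1.15 (adjusted p = 0.107).

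Direction changed only in differences that were not called. With a pseudocount of 0.1, SSC minus ESC was -0.0064 for Pou3f1 and -0.32 for T, and SSC minus iPS was -0.12 for T. With quantile normalization these were -0.22, -0.10 and -0.044, and -0.012 for Pou3f1 against iPS lines. When 1 line was left out, SSC minus ESC ran from -0.30 to 0.43 for Pou3f1 and from -0.20 to 0.16 for T. SSC minus iPS ran from -0.051 to 0.67 for Pou3f1 and from -0.16 to 0.26 for T, and SSC minus HSC from -0.13 to 0.98 for Etv5. MASC minus ESC ran from -0.17 to 0.064 for Etv5 and from -0.33 to 0.89 for Bcl6b. Beyond fewer samples and the higher bar, the cause was not tested. Values under 1 FPKM, as for T and Lhx1 in most samples, rest on few reads.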

Other observations

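Outside the comparisons of the report, 3 genes of the RET pathway are given for their values by strain or in HSC cultures. They were chosen after their values were seen and carry no test. Gdf15 was at 75.9 and 430 FPKM in the HSC cultures, against at most 14.3 FPKM in the other 15 samples. Grb10, an imprinted adaptor gene, was at 49.8 and 47.0 FPKM in MASC.5 and MASC.6, which carried Gt(ROSA26)Sor-lacZ, and at 2.93 to 12.3 FPKM in the other 4 MASC lines. Yes1, a SRC-family kinase gene, was at 3.63 and 3.002 FPKM in the Oct4-GFP lines MASC.1 and MASC.2, and at 17.8 to 20.8 FPKM in the other 4 MASC lines. The ESC lines were split in the same order for Yes1, at 6.06 FPKM in ESC.1 with Oct4-GFP and 23.3 FPKM in ESC.2. In SSC lines, Yes1 was at 1.03 and 11.8 FPKM in the Oct4-GFP lines SSC.1 and SSC.2, which did not follow that split.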
